A study of Homo sapiens with 8 samples.

Results

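Tight junctions are the belts of contact that seal the space between neighbouring epithelial cells. Claudins, a family of membrane proteins, form their strands and set which ions pass. Occludin (*OCLN*) and JAM-A (*F11R*) lie in the same membrane domain, and the scaffold ZO-1 (*TJP1*) ties them to actin. Claudin-3, claudin-4 and claudin-7 are common claudins of the colonic epithelium, claudin-1 and claudin-2 are often raised in colorectal tumors, and claudin-12 is a widely expressed claudin. YAP and TAZ are coactivators that act through the TEAD factors and are held in check by cell contact, and HHEX is a homeobox transcription factor.

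The values here are those of 9 tight junction genes, *CLDN1*, *CLDN2*, *CLDN3*, *CLDN4*, *CLDN7*, *CLDN12*, *OCLN*, *TJP1* and *F11R*, among 20028 distinct gene names measured by RNA-seq in HCT-116, an established human colorectal cancer cell line. The genes were chosen by name, with earlier results of these data known. *CLDN3* was singled out because it was higher in every knockdown, so that its values against the control are given as a description, with no test. All 8 libraries came from HCT-116 cells transfected with siRNA. A negative control siRNA gave 2 of them (siNC). *HHEX* was targeted in 3 (siHHEX), *YAP1* together with *WWTR1*, the gene of TAZ, in 2 (siYAP/TAZ), and the genes *TEAD1* to *TEAD4* all at once in 1 (siTEAD1/2/3/4). The sample record of siHHEX 3 is numbered apart from those of the other libraries, and nothing says whether it was made with them. The replicates of a knockdown used different siRNAs, and nothing says whether the siNC libraries came from separate cultures, so that the p values measure the spread between these libraries only. The unit is FPKM, fragments scaled to the length of the gene and to the total of the library, so that levels are per length and can be compared between genes. The number of reads behind a value is unknown.

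The targeted genes were examined first. *HHEX* was 8.60 and 9.06 FPKM in the siNC libraries and 3.25, 3.54 and 1.85 FPKM in the siHHEX libraries. *WWTR1* was 6.80 and 6.72 FPKM in siNC and 2.64 and 2.58 FPKM in siYAP/TAZ. *YAP1* was 20.2 and 19.7 FPKM in siNC and 6.90 and 8.39 FPKM in siYAP/TAZ, and it was also low in siHHEX 1 and 3, at 5.77 and 6.93 FPKM, but not in siHHEX 2, at 17.4 FPKM. Its log2 change was -1.28 in siYAP/TAZ (limma adjusted p = 0.0681) and -1.07 in siHHEX (adjusted p = 0.0429). In the siTEAD1/2/3/4 library, *TEAD4* was 5.56 FPKM against 20.3 and 21.3 FPKM in siNC and *TEAD1* was 9.02 FPKM against 18.3 and 19.0 FPKM, and *TEAD2* was 2.73 FPKM against 4.10 and 3.47 FPKM, whereas *TEAD3* was 9.08 FPKM against 7.36 and 6.99 FPKM and was not lower. *TEAD1*, *TEAD2* and *TEAD4* also changed in another knockdown. In siHHEX *TEAD1* was 6.99, 10.2 and 5.30 FPKM, a log2 change of -1.25 (limma adjusted p = 0.00642), and *TEAD2* was 6.50, 8.02 and 7.18 FPKM, a log2 change of 0.78 (adjusted p = 0.00709). In siYAP/TAZ *TEAD4* was 12.5 and 13.6 FPKM, a log2 change of -0.63 (adjusted p = 0.025). After a correction for GC content and length, described below, *TEAD1* in siHHEX and *TEAD4* in siYAP/TAZ were still called (adjusted p = 0.0206 and 0.0195) and *TEAD2* and *YAP1* in siHHEX were not (adjusted p = 0.0986 and 0.171). *TEAD4* in siHHEX, at -0.52, and *YAP1* in siYAP/TAZ, at -1.30, were called only after it (adjusted p = 0.0381 and 0.0463).

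The cells carried epithelial markers, with 6 or 7 of 10 listed markers at 1 FPKM or more in each library and *KRT8*, a simple epithelial keratin, the most abundant, at 897 to 1757 FPKM. The summed epithelial markers fell from 3375 and 3518 FPKM in siNC to 2033 and 1978 FPKM in siYAP/TAZ. Most of this sum came from *KRT8*, *KRT18* and *KRT19*. *KRT8* and *KRT18* were lower by log2 changes of -0.88 and -1.22 (limma adjusted p = 0.00227 and 0.000861). The other tested markers of the list did not pass the test there and went both ways. *KRT19* and *EPCAM* were at -0.37 and -0.14, and *KRT20*, *CDH1* and *CDX2* at 0.43, 0.30 and 0.07. In siHHEX *EPCAM* and *KRT18* were lower, by log2 changes of -0.38 and -0.29 (adjusted p = 0.0289 and 0.0348). *CDX2*, on the same list, was higher, by 0.42 (adjusted p = 0.042). *CDH1*, *KRT19* and *KRT20* were not called, at -0.12, 0.21 and 0.07. After the correction *KRT18* was called at -0.69, and *EPCAM* and *CDX2* were not called. *KRT8* turned from 0.04 (adjusted p = 0.738), with the groups overlapping, to -0.35 (adjusted p = 0.0481). Between siHHEX and siYAP/TAZ *KRT8*, *KRT18* and *KRT19* were higher in siHHEX, by log2 differences of 0.91, 0.93 and 0.58, the last not called after the correction. The 6 endothelial markers summed to at most 0.221 FPKM, and the 8 mesenchymal and fibroblast markers to between 2.71 FPKM in siNC 2 and 8.17 FPKM in siYAP/TAZ 2. Of these, *ACTA2*, a smooth muscle actin, rose in siYAP/TAZ by 0.999 on the log2 scale (adjusted p = 0.0234), from 0.787 and 0.510 FPKM in siNC to 1.84 and 2.79 FPKM. The 6 blood cell markers summed to 3.57 to 7.35 FPKM, nearly all of it from *CD68*, a lysosomal protein of macrophages, which was 3.72 and 3.87 FPKM in siNC and 7.33 and 5.28 FPKM in siYAP/TAZ (adjusted p = 0.0775) and was lower in siHHEX than in siYAP/TAZ by a log2 difference of -0.49 (adjusted p = 0.0471). After the correction *CD68* was called higher in siYAP/TAZ, at 0.62 (adjusted p = 0.0464). The part of these differences in the results below was not tested. In bulk RNA, fewer cells that express a gene and less RNA per cell cannot be told apart.

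*CLDN3* and *CLDN4* are neighbours on the long arm of chromosome 7, with 29.27 kb between the bounds of the genes in GENCODE annotation of GRCh38. *CLDN3* lies at chr7:73768997-73770270 on the minus strand, and its canonical transcript is a single exon of 1274 bases with 69.2% GC. *CLDN4* lies at chr7:73799542-73832690 on the plus strand, and its canonical transcript also has 1 exon. RefSeq promoters (GRCh38.p14) were at hand for 8 of the 9 genes, in all 14 start sites. The 250 bases before the start are shown for *CLDN3*, which was higher in every knockdown library, its neighbour *CLDN4*, and *CLDN7* and *OCLN*, which moved in opposite directions in siHHEX. Capitals mark the GC box GGGCGG, bound by Sp factors, and the E2-box CACCTG, bound by the Snail and ZEB repressors, on either strand. Each sequence runs 5′ to 3′ along the strand of its gene.
CLDN3, chr7:73770271-73770520, minus strand: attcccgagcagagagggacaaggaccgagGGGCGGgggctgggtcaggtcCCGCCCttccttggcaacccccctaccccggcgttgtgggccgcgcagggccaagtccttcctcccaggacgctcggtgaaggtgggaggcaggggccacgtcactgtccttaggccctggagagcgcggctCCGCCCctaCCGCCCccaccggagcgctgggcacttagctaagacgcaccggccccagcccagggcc
CLDN4, chr7:73830746-73830995, plus strand: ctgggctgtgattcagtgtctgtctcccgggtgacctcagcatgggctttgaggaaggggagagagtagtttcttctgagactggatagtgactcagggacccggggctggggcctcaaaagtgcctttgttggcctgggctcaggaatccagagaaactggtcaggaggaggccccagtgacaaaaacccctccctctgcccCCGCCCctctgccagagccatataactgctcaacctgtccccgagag
CLDN7, the second of 2 start sites, chr17:7262479-7262728, minus strand: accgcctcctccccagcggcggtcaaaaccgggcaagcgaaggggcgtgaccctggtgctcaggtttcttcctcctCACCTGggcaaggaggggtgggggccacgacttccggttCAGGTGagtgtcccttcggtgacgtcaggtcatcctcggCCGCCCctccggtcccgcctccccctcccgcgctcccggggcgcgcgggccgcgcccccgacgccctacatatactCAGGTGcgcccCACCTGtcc
OCLN, the first of 2 start sites, chr5:69492297-69492546, plus strand: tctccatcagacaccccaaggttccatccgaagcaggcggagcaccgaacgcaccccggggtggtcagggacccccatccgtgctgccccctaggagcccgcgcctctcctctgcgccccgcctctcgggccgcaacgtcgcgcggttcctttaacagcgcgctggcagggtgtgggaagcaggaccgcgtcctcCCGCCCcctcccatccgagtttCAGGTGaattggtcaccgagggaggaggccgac

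The *CLDN3* window held 4 GC boxes and no E2-box, and its GC content of 71.6% was reached by 17.2% of 35116 RefSeq promoters. The *CLDN4* window held 1 GC box and no E2-box. The *CLDN7* window shown held 4 E2-boxes, the nearest beginning 9 bases before the start, and the window of the other *CLDN7* start site held no E2-box and no GC box. Each *OCLN* window held 1. One of 4 *TJP1* windows also held 1 E2-box. The TEAD motif CATTCC was in none of the 14 windows on either strand, and the homeobox core ATTAA was only in 2 *TJP1* windows. Among all promoters of this length, 42.6% held the GC box, 17.5% the E2-box, 11.9% CATTCC and 22.7% ATTAA. Among the 12576 promoters of tested genes the shares were 66.2%, 16.1%, 9.76% and 13.1%. A match is a match of letters only, and binding was not measured in these values. *SNAI1*, which encodes Snail, was between 6.03 and 9.10 FPKM in the 8 libraries, and *ZEB1* was at most 0.331 FPKM.

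In control cells the tight junction genes spanned a wide range of levels. *CLDN7* was the highest, with 60.4 ± 2.85 FPKM (SD, n = 2), followed by *CLDN4* with 43.0 ± 3.56, *F11R* with 26.8 ± 1.69, *TJP1* with 13.4 ± 0.633, *CLDN12* with 7.90 ± 0.0709, *OCLN* with 4.48 ± 0.0628 and *CLDN3* with 1.57 ± 0.0369 FPKM. No neighbours in this order overlapped between the siNC libraries. *CLDN1* and *CLDN2* were near 0 throughout. *CLDN1* reached at most 0.111 FPKM, in siYAP/TAZ 2, and was listed at 0 in 2 libraries. *CLDN2* reached at most 0.181 FPKM, in siYAP/TAZ 1, and was listed at 0 in 4. Neither passed the filter of at least 1 FPKM in at least 2 libraries, which left 10677 genes to test and 7 of the 9 tight junction genes.

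**Figure D1:**
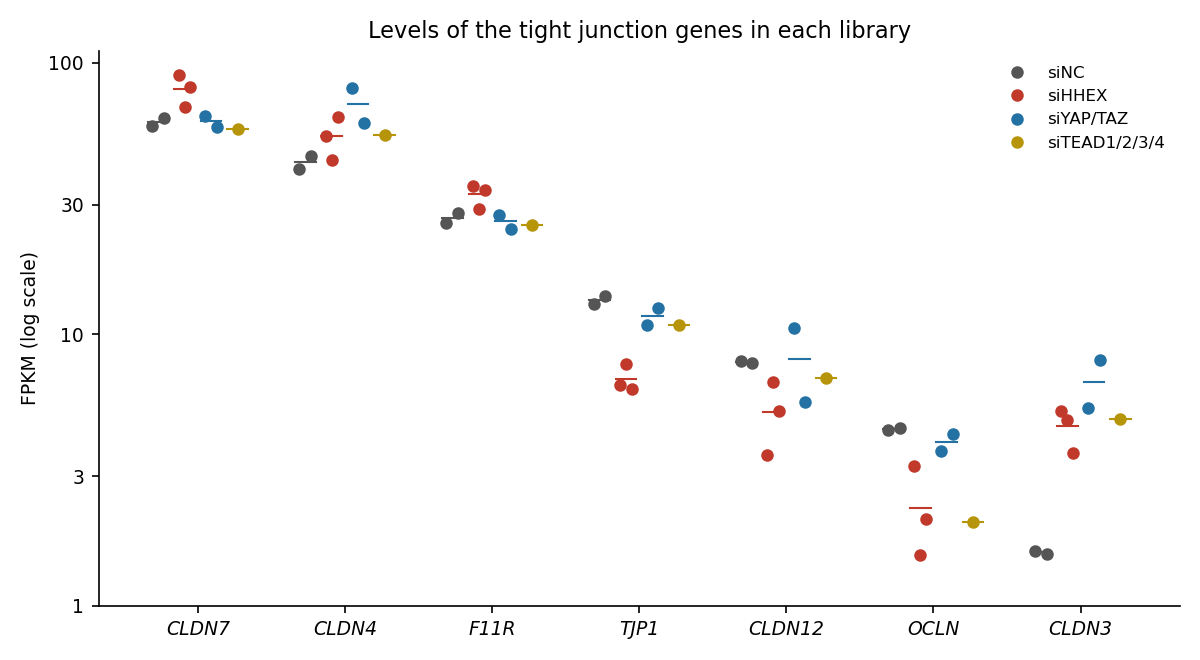
FPKM on a log axis of the 7 tight junction genes that passed the filter, 1 point per library and a line at the mean of each condition. *CLDN3* was 1.54 and 1.60 FPKM in siNC and 3.66 to 8.03 FPKM in the knockdowns, and *TJP1* was 6.26 to 7.74 FPKM in siHHEX and above 10 FPKM elsewhere.

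The order of the levels shifted in the knockdowns. In siYAP/TAZ the mean of *CLDN4*, 70.5 ± 14.5 FPKM (SD, n = 2), stood above that of *CLDN7*, 61.0 ± 4.25 FPKM, but the libraries of these genes overlapped. *CLDN3* passed *OCLN* in all 3 knockdowns without overlap, from below it in siNC. In siHHEX *TJP1*, *CLDN12* and *CLDN3* followed each other with overlapping libraries, at 6.84 ± 0.787, 5.16 ± 1.55 and 4.57 ± 0.814 FPKM (SD, n = 3). In the siTEAD1/2/3/4 library *CLDN7* and *CLDN4* were nearly level, at 56.8 and 54.3 FPKM.

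Of 24 *CLDN* genes in the files, 6 were at 1 FPKM or more in each library, namely *CLDN7*, *CLDN4*, *CLDN12*, *CLDN15*, *CLDN3* and *CLDN23*, and 10 were listed at 0 in all 8. *CLDN4* and *CLDN7* together gave 85.1% to 90.7% of the summed claudin FPKM. The claudin sum was 114 and 123 FPKM in siNC, 159, 130 and 161 FPKM in siHHEX, 168 and 139 FPKM in siYAP/TAZ and 130 FPKM in siTEAD1/2/3/4. Every knockdown library was above both siNC libraries. The difference between the sums was not tested, and the sums were not corrected for GC content and length. After that correction, described below, the log2 changes of *CLDN4* and *CLDN7* were -0.12 and 0.06 in siHHEX. They were 0.70 and 0.04 in siYAP/TAZ, and 0.23 and -0.14 in siTEAD1/2/3/4. The summed FPKM of all genes was also above both siNC libraries in each siHHEX library. It was below both in the siYAP/TAZ and siTEAD1/2/3/4 libraries.

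**Figure D2:**
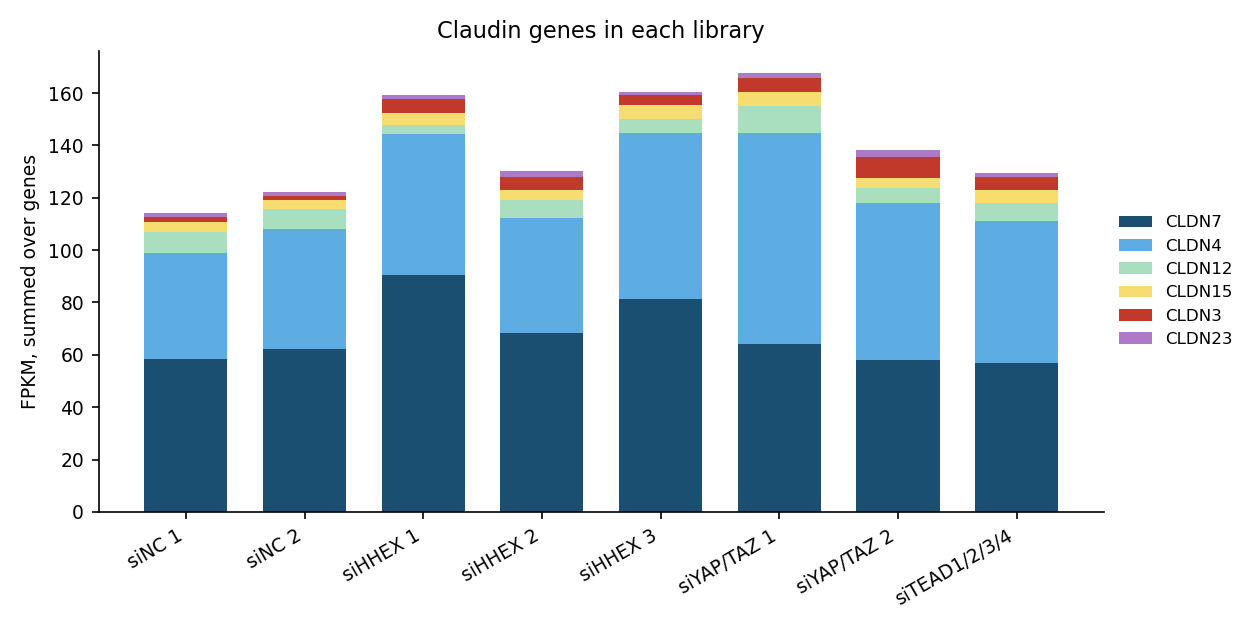
FPKM of the 6 claudin genes at 1 FPKM or more, stacked, for each of the 8 libraries. *CLDN7* and *CLDN4* make up most of each bar, and *CLDN3* is a thin band that is widest in siYAP/TAZ 2, at 8.03 FPKM.

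*CLDN3* was 1.60 and 1.54 FPKM in the siNC libraries, 5.21, 4.85 and 3.66 FPKM in siHHEX, 5.33 and 8.03 FPKM in siYAP/TAZ and 4.87 FPKM in siTEAD1/2/3/4. All 6 knockdown libraries lay above both siNC libraries. The ratio of the mean FPKM to that of siNC was 2.91 in siHHEX, 4.26 in siYAP/TAZ and 3.10 in siTEAD1/2/3/4. All log2 changes here, above and below, are on the log2(FPKM + 1) scale, which understates the change of low genes. On it the differences were 1.11 ± 0.18 (SE), 1.56 ± 0.20 (SE) and 1.19. These values singled the gene out. The difference between the knockdowns was not the ground of that choice, but it is computed from the same siHHEX and siYAP/TAZ values. *CLDN3* was lower in siHHEX than in siYAP/TAZ by a log2 difference of -0.45 ± 0.18 (SE), and this did not pass the test (limma adjusted p = 0.0744). Leaving out 1 library gave differences from -0.71 to -0.20.

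Across all genes, against siNC, 16% of the tested genes were called higher and 16.9% lower in siHHEX, and 6.15% were called higher and 2.13% lower in siYAP/TAZ, by limma with a Benjamini-Hochberg adjusted p under 0.05 over all tested genes. Between siHHEX and siYAP/TAZ, 13.5% were called higher in siHHEX and 25.9% lower. For siTEAD1/2/3/4, with 1 library and no test, 0.412% were more than 2-fold higher and 0.478% more than 2-fold lower on the log2(FPKM + 1) scale. The counts of calls depended on single libraries, in siYAP/TAZ also on siYAP/TAZ 2 and between the knockdowns on the library left out. The calls against siNC rest on both siNC libraries. Without siNC 1 or siNC 2, the calls in siHHEX fell from 1712 higher and 1806 lower to 10 and 9 or to 15 and 12, those in siYAP/TAZ from 657 and 227 to 11 and 11 or to 8 and 7, and none of the 6 tested tight junction genes other than *CLDN3* was called in either.

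Of the 6 tested genes other than *CLDN3*, 1 was called higher and 2 lower in siHHEX, and none was called in siYAP/TAZ. On the log2(FPKM + 1) scale none of the 6 was past 2-fold in siTEAD1/2/3/4, although *OCLN* was at 45.4% of the siNC mean FPKM. Their median log2 change was -0.14 in siHHEX and -0.03 in siYAP/TAZ, beside -0.01 and 0.08 over all tested genes. In siHHEX 1 and 2 of 6 stand beside 16% and 16.9% of all tested genes, and 6 genes are too few to read more from these shares. Between siHHEX and siYAP/TAZ 1 was called higher in siHHEX and 2 lower, beside 13.5% and 25.9% of all tested genes.

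*TJP1*, which encodes the scaffold ZO-1, was 12.9 and 13.8 FPKM in siNC and 6.52, 7.74 and 6.26 FPKM in siHHEX. The groups did not overlap. It fell by 0.88 ± 0.13 (SE) on the log2 scale (adjusted p = 0.00492), to 51.2% of the siNC mean. In siYAP/TAZ it was 10.8 and 12.5 FPKM and in siTEAD1/2/3/4 10.8 FPKM, below both siNC libraries but with a siYAP/TAZ log2 change of only -0.18 (adjusted p = 0.453). *TJP1* was also lower in siHHEX than in siYAP/TAZ, by a log2 difference of -0.69 ± 0.13 (SE) (adjusted p = 0.00681). Without siNC 1 or siNC 2 the adjusted p of the siHHEX change was 0.0747 or 0.0739.

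*OCLN*, which encodes occludin, was 4.43 and 4.52 FPKM in siNC and 3.27, 1.53 and 2.09 FPKM in siHHEX. All siHHEX libraries were below siNC, siHHEX 2 the lowest. It fell by 0.77 ± 0.20 (SE) on the log2 scale (adjusted p = 0.0205). *OCLN* has a pseudogene copy, *OCLNP1*, with which it may share reads. In siYAP/TAZ it was 3.72 and 4.29 FPKM, a log2 change of -0.13 that did not pass the test (adjusted p = 0.734). In siTEAD1/2/3/4 it was 2.03 FPKM, within the siHHEX range, a log2 change of -0.85 with no replicate check. The difference between siHHEX and siYAP/TAZ was -0.63 ± 0.20 (SE) (adjusted p = 0.0332).

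*CLDN7*, the most abundant claudin in control cells, was 58.4 and 62.4 FPKM in siNC and 90.4, 68.5 and 81.4 FPKM in siHHEX. It rose by 0.39 ± 0.13 (SE) on the log2 scale (adjusted p = 0.0486), close to the threshold. In siYAP/TAZ it was 64.0 and 58.0 FPKM, overlapping siNC, and in siTEAD1/2/3/4 56.8 FPKM. It was higher in siHHEX than in siYAP/TAZ by a log2 difference of 0.38 ± 0.13 (SE) (adjusted p = 0.0477). *CLDN7* shares exonic bases with *ELP5* on the opposite strand and with a gene on its own strand, and the strand setting of the counting is not given in the sources used here, so that some of its fragments could belong to these. *CLDN12* and *F11R* also each overlap a gene on their own strand.

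*CLDN4* was 40.5 and 45.5 FPKM in siNC, 80.7 and 60.2 FPKM in siYAP/TAZ and 54.3 FPKM in siTEAD1/2/3/4. The siYAP/TAZ libraries lay above siNC, with a log2 change of 0.69 ± 0.19 (SE) that missed the threshold (adjusted p = 0.0592). In siHHEX it was 53.9, 43.8 and 63.3 FPKM, overlapping siNC, with a log2 change of 0.30 (adjusted p = 0.202). The difference between siHHEX and siYAP/TAZ was -0.39 ± 0.18 (SE) (adjusted p = 0.105).

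*CLDN12* and *F11R* passed no test. *CLDN12* was 7.95 and 7.85 FPKM in siNC and 3.58, 6.68 and 5.23 FPKM in siHHEX, all below siNC, with a log2 change of -0.56 ± 0.26 (SE) (adjusted p = 0.113). In siYAP/TAZ its libraries lay on both sides of siNC, at 10.5 and 5.65 FPKM. *F11R*, which encodes the adhesion molecule JAM-A, was 25.6 and 27.99 FPKM in siNC and 35.3, 29.0 and 33.9 FPKM in siHHEX, all above siNC, with a log2 change of 0.28 ± 0.13 (SE) (adjusted p = 0.117). It was 27.6 and 24.5 FPKM in siYAP/TAZ and 25.3 FPKM in siTEAD1/2/3/4.

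The changes in siHHEX moved with the base composition of the transcripts. In the siHHEX libraries the log2 change from the siNC mean rose with GC content across the tested genes, with a Spearman correlation of 0.678, 0.598 and 0.755 in siHHEX 1, 2 and 3, compared with 0.0606 and -0.0511 in siYAP/TAZ, 0.298 in siTEAD1/2/3/4 and -0.211 between the siNC libraries. These are descriptions across genes, which are not independent replicates. GC content and transcript length together took up 47.2%, 34.3% and 57.2% of the variance of the change in siHHEX 1, 2 and 3 and at most 2.23% in siYAP/TAZ. The tight junction genes fell on both sides: *CLDN3*, *CLDN4*, *CLDN7* and *F11R*, with 69.2%, 60.8%, 56.0% and 46.7% GC, had positive siHHEX changes, and *TJP1*, *OCLN* and *CLDN12*, with 45.0%, 38.8% and 37.7% GC, negative ones. Their transcripts differ in length too, with 1274, 1695, 1542 and 4639 bases for the first and 7190, 6181 and 3533 bases for the others. The parts of GC content and of length were not tested apart.

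**Figure D3:**
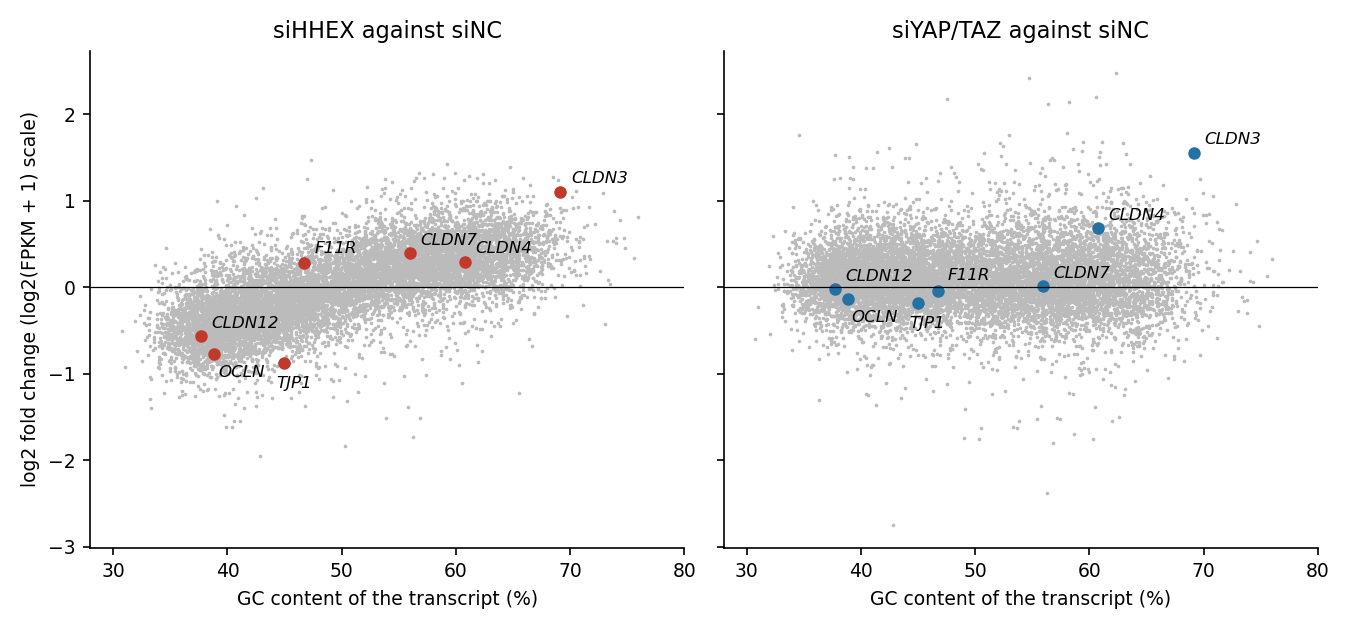
log2 fold change of each tested gene (grey points) against the GC content of its transcript in percent, for siHHEX (left) and siYAP/TAZ (right) against siNC, with the 7 tight junction genes in color. The grey points rise with GC content in siHHEX but not in siYAP/TAZ, where *CLDN3* and *CLDN4* lie above the other tight junction genes.

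When the trend on GC content and length was taken off each library, the siHHEX change of *CLDN3* was 0.58 in place of 1.11, with 0.79, 0.80 and 0.14 in siHHEX 1, 2 and 3, while that in siYAP/TAZ was 1.53 in place of 1.56 and that in siTEAD1/2/3/4 1.06 in place of 1.19. The corrected difference of *CLDN3* between siHHEX and siYAP/TAZ, -0.95 ± 0.22 (SE), passed the test (adjusted p = 0.0357), which that of the deposited values did not (adjusted p = 0.0744). It rests on the same knockdown libraries that singled the gene out. *TJP1* stayed lower in siHHEX, with a log2 change of -0.63 (adjusted p = 0.0208). Its difference from siYAP/TAZ became -0.41 and was no longer called (adjusted p = 0.057). *OCLN* at -0.32 (adjusted p = 0.417) and *CLDN7* at 0.06 (adjusted p = 0.781) were no longer called against siNC. Nor were their differences between siHHEX and siYAP/TAZ, -0.16 (adjusted p = 0.665) and 0.02 (adjusted p = 0.929). *F11R* moved up in siHHEX, to 0.44 (adjusted p = 0.0728), with 0.55, 0.23 and 0.53 in siHHEX 1, 2 and 3, and *CLDN12* moved towards 0, to -0.12 (adjusted p = 0.796), with -0.50, 0.07 and 0.06. *CLDN4* turned to -0.12 in siHHEX (adjusted p = 0.617), was called higher in siYAP/TAZ with 0.70 (adjusted p = 0.0232), and was lower in siHHEX than in siYAP/TAZ by -0.82 (adjusted p = 0.0171). *OCLN* in siTEAD1/2/3/4 was -0.77 after the correction.

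**Figure D4:**
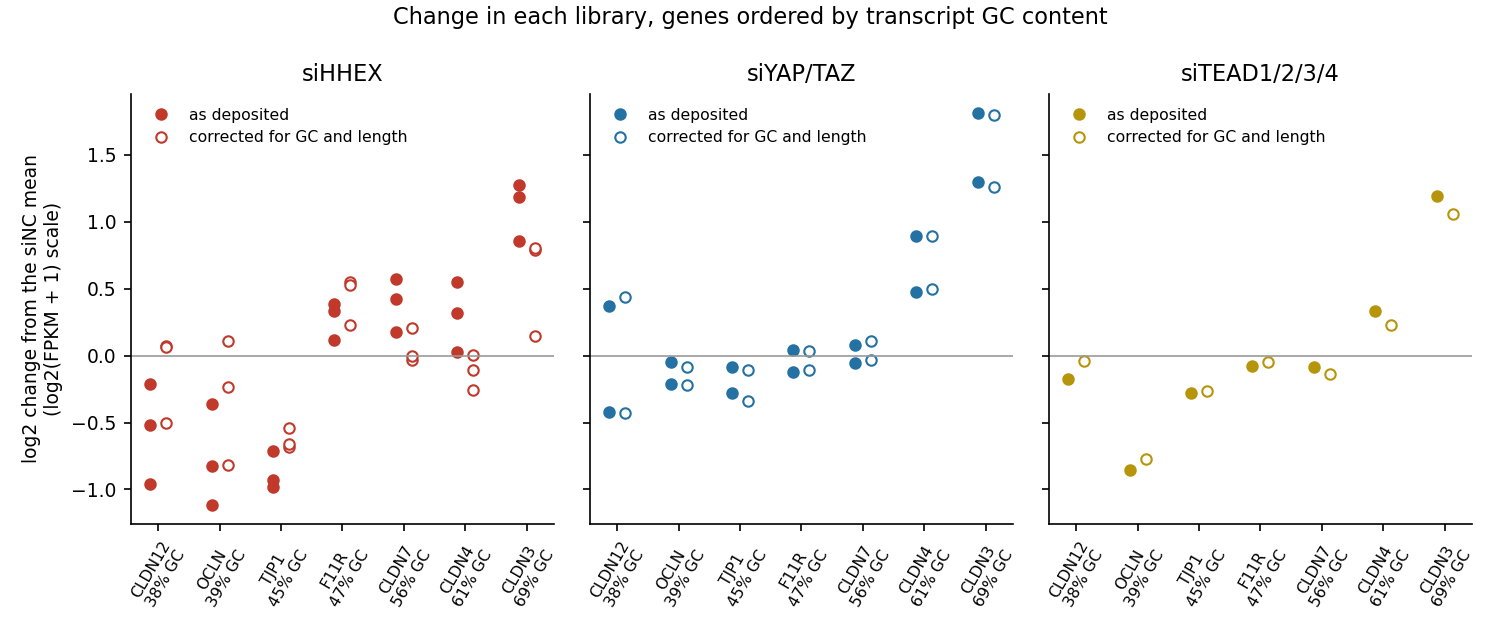
log2 change from the siNC mean in each knockdown library, with genes ordered by the GC content of the transcript. Filled points are the values as deposited and open points those corrected for GC content and length. In siHHEX the filled points go from below 0 on the left to above 0 on the right, and after correction *TJP1* stays below 0 and *CLDN3* and *F11R* above 0 in all 3 libraries.

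The wider tight junction machinery was examined in a list of 57 other junction genes, of which 30 passed the filter. In siHHEX 6 were called higher and 5 lower, 20% and 16.7% of those tested, beside 16% and 16.9% of all tested genes. In siYAP/TAZ 3 were called higher, 10% of those tested beside 6.15% of all genes, and none lower, beside 2.13%. The median log2 change was 0.03 in siHHEX and 0.25 in siYAP/TAZ, beside -0.01 and 0.08 over all tested genes. Between the knockdowns, 1 was higher in siHHEX and 11 lower, 3.33% and 36.7% of those tested beside 13.5% and 25.9% of all genes. The split of 1 and 11 became 6 and 8 (20% and 26.7%, beside 23.5% and 14.2% of all genes) when libraries were scaled to the same median, a scaling that moved the median of all genes from -0.13 to 0.03. On the log2(FPKM + 1) scale none was past 2-fold in siTEAD1/2/3/4, although *TJP3* and *ESAM* were at 2.48 and 2.09 times the siNC mean FPKM.

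Among the scaffolds, *TJP3*, which encodes ZO-3, was 1.58 and 1.89 FPKM in siNC, 3.67, 3.47 and 5.77 FPKM in siHHEX, 5.83 and 8.32 FPKM in siYAP/TAZ and 4.30 FPKM in siTEAD1/2/3/4. All knockdown libraries were above siNC, as for *CLDN3*. *TJP3* rose by 0.93 ± 0.21 (SE) in siHHEX (adjusted p = 0.0126) and by 1.55 ± 0.23 (SE) in siYAP/TAZ (adjusted p = 0.00921). After the correction the siHHEX change was 0.58 (adjusted p = 0.0848) and the siYAP/TAZ change 1.54 (adjusted p = 0.00481).

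Polarity proteins of the PAR complex place the junction along the side of the cell. Of the *PARD6* paralogs 1 rose and 1 fell in siHHEX, and *PARD6G* was not called, with a log2 change of 0.13 (adjusted p = 0.707). *PARD3* was not called either, at -0.20 (adjusted p = 0.277). *PARD6A* was 2.10 and 2.04 FPKM in siNC, 5.23, 4.87 and 6.14 FPKM in siHHEX and 4.97 and 5.50 FPKM in siYAP/TAZ, and rose in both, by 1.06 and 1.02 (adjusted p = 0.00368 and 0.00863). *PARD6B* was 6.74 and 5.92 FPKM in siNC, 1.51, 2.33 and 1.20 FPKM in siHHEX and 3.99 and 3.94 FPKM in siYAP/TAZ. It fell by 1.47 ± 0.18 (SE) in siHHEX (adjusted p = 0.00368), the largest decrease of the list, and its siYAP/TAZ change of -0.56 was not called (adjusted p = 0.098), but was after the correction (adjusted p = 0.0361). Both siHHEX calls held after the correction, at 0.55 and -1.05. The atypical protein kinases C differed too: *PRKCI* fell by 0.67 and *PRKCZ* rose by 0.36 in siHHEX, and neither was called after the correction. *PALS1*, a scaffold of the Crumbs complex, fell by 0.63 in siHHEX, and *CRB3*, the membrane protein of that complex, rose by 0.66, and neither was called after the correction.

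Without siNC 1 or siNC 2 no call of the list remained in siYAP/TAZ, and in siHHEX only that of *PARD6B*, without siNC 2.

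*RAB13*, a small GTPase that carries junction proteins to the membrane, was 12.5 and 10.8 FPKM in siNC, 23.0 and 30.9 FPKM in siYAP/TAZ and 18.6 FPKM in siTEAD1/2/3/4, and rose by 1.13 ± 0.18 (SE) in siYAP/TAZ (adjusted p = 0.0113). In siHHEX it was 16.7, 12.6 and 15.6 FPKM and was not called. Of the other membrane proteins, *ESAM* rose by 0.72 and *CXADR* fell by 0.52 in siHHEX, and the claudin-domain gene *CLDND1* fell by 0.71. *CLDN15* and *CLDN23* passed no test against siNC. *SYMPK*, whose product symplekin is known both at junctions and in RNA processing, rose by 0.41 in siHHEX. After the correction none of these 4 siHHEX calls remained, with *ESAM* at 0.38, *CXADR* at -0.03, *CLDND1* at -0.35 and *SYMPK* at 0.12 (adjusted p = 0.104, 0.898, 0.217 and 0.44). *ESAM* was then called higher in siYAP/TAZ, at 0.61 (adjusted p = 0.0268).

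Between siHHEX and siYAP/TAZ, *CLDND1* was lower in siHHEX by a log2 difference of -1.11 (adjusted p = 0.00516), *MARVELD2*, which encodes tricellulin, by -0.48, and *LSR*, which encodes angulin-1, was higher by 0.45. Of the 9 scaffold and polarity genes lower in siHHEX, the 5 with the largest differences were *PARD6B*, *RAB13*, *PRKCI*, *PALS1* and *MAGI1*, at -0.91, -0.80, -0.79, -0.77 and -0.77. After the correction none of the whole list was called higher and 6 were called lower, namely *CLDND1*, *TJP3*, *PARD6B* and *RAB13*, which were also called before it, and *PARD6A* and *MICALL2*, which were not. The direction of *PARD6A* turned, from 0.04 (adjusted p = 0.833) as deposited to -0.46 (adjusted p = 0.0312), and *MICALL2* went from -0.25 to -0.61. The calls higher and lower are 0% and 20% of those tested, beside 2.38% and 6.62% of all genes after the correction. *MARVELD2*, *PRKCI*, *PALS1* and *MAGI1* were no longer called (adjusted p = 0.303, 0.159, 0.156 and 0.0533), and *LSR* was at 0.01.

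**Figure D5:**
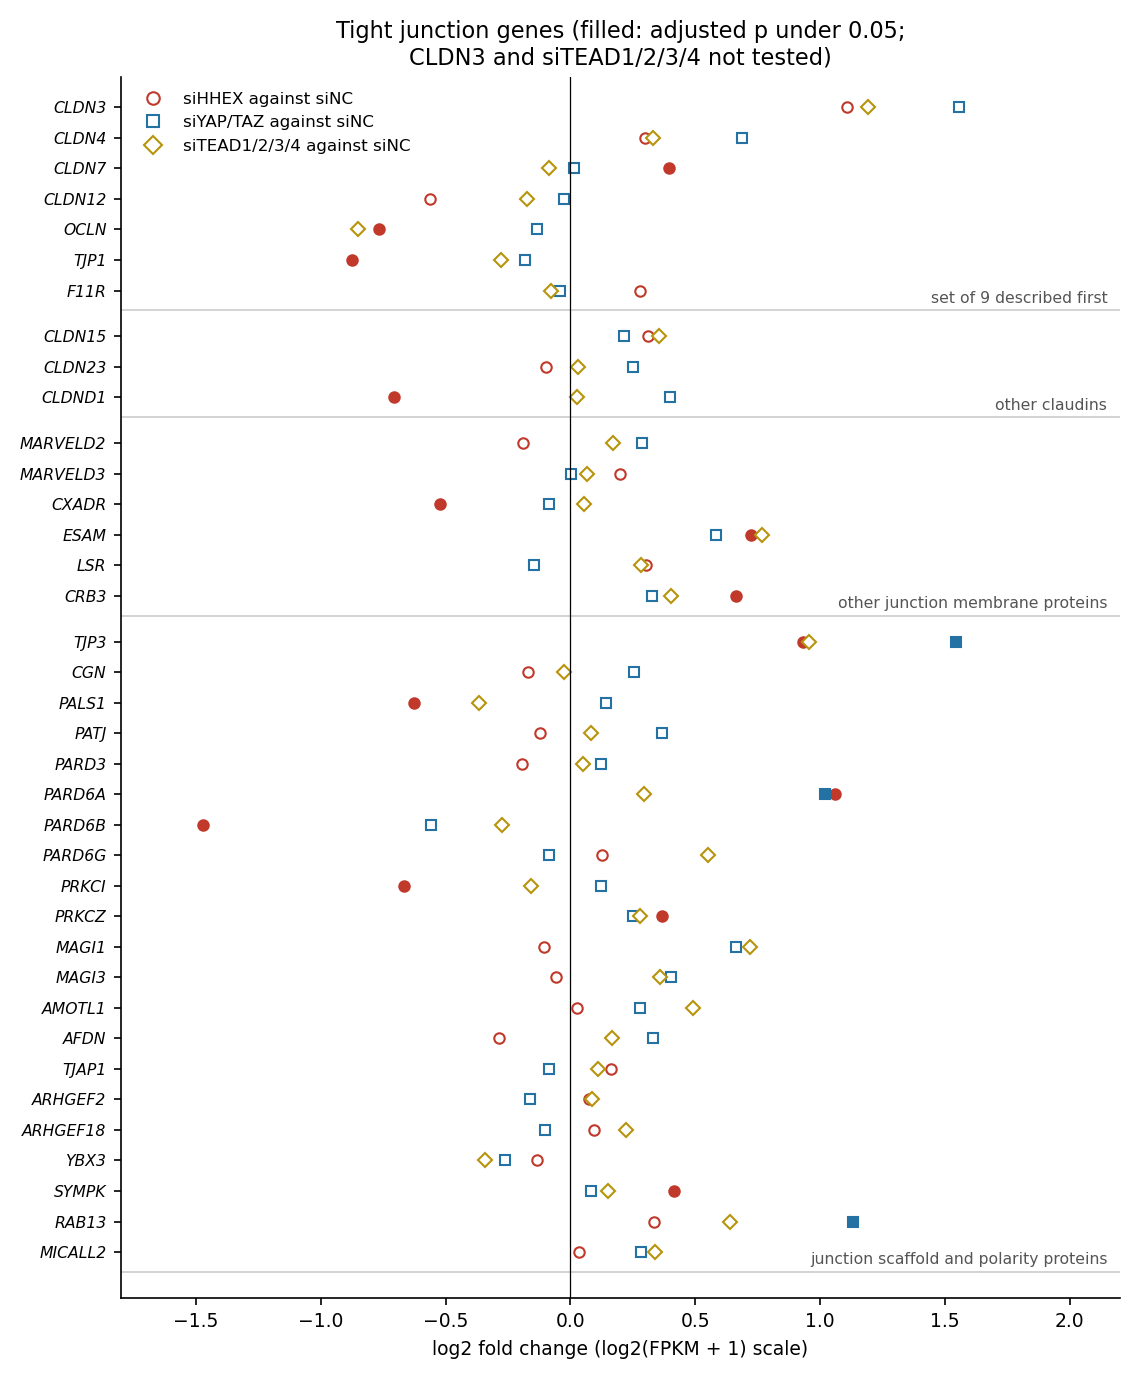
log2 fold change against siNC of the tight junction genes that passed the filter, by list, for siHHEX (circles), siYAP/TAZ (squares) and siTEAD1/2/3/4 (diamonds). Filled symbols have a limma adjusted p under 0.05, and *CLDN3* and the siTEAD1/2/3/4 library were not tested. *PARD6B* at -1.47 lies farthest to the left and *CLDN3* at 1.56 farthest to the right.

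Around *CLDN3* and *CLDN4*, 7 other genes among those measured lie within 100 kb, of which 6 passed the filter. In siYAP/TAZ *METTL27*, next to *CLDN4*, rose by 0.83 ± 0.20 (SE) (adjusted p = 0.0383) and *ABHD11*, next to *CLDN3* on the other side, by 0.59 ± 0.14 (SE) (adjusted p = 0.0365). *BUD23*, *STX1A*, *VPS37D* and *DNAJC30* were not called in siYAP/TAZ, with log2 changes of -0.26, -0.15, 0.19 and 0.57. In siHHEX *METTL27* and *VPS37D* rose by 0.59 and 0.52 (adjusted p = 0.0376 and 0.0363), and with GC content and length corrected for their changes were 0.02 and 0.04. The calls, all higher, were 2 of 6 in siYAP/TAZ, beside 6.15% of all tested genes, and 2 of 6 in siHHEX, beside 16%. With the correction the siYAP/TAZ changes of *METTL27* and *ABHD11* were 0.80 and 0.60. The other alternatives are not given for these genes, and their calls against siNC rest on both siNC libraries. The genes were examined for their position, and 6 are too few to read more from the shares.

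Regulators of epithelial identity were taken from a list of 20, of which 12 passed the filter. In siYAP/TAZ 3 of the 12 were called higher, 25% beside 6.15% of all tested genes, and none lower. The list was chosen with earlier results of these data known, and 12 genes are too few to read more from the shares. *GRHL2* rose by 0.73, *ELF3* by 0.81 and *ESRP1* by 0.55 (adjusted p = 0.0172, 0.0257 and 0.0372), the first a grainyhead factor known to activate claudin genes. Leaving out 1 library gave changes of 0.67 to 0.79 for *GRHL2*, 0.60 to 1.01 for *ELF3* and 0.50 to 0.59 for *ESRP1*. As stated above, the calls against siNC rest on both siNC libraries. With median scaling only *GRHL2* of these 3 genes remained under 0.05, 8.33% of the 12 beside 3.33% of all genes. With the correction all 3 were called and *GRHL1* as well (adjusted p = 0.0423), 33.3% beside 9.21%. Between the knockdowns *GRHL1*, *GRHL2*, *ELF3*, *ESRP1* and *KLF5* were lower in siHHEX than in siYAP/TAZ, by log2 differences of -0.51, -0.40, -0.57, -0.56 and -0.47, 41.7% of the 12 beside 25.9% of all tested genes, and none was higher. After the correction only *ELF3* of these was called (adjusted p = 0.0222), the others having an adjusted p of 0.126, 0.0684, 0.201 and 0.202 in the order given. With median scaling the split of 0 higher and 5 lower became 4 and 2 (33.3% and 16.7%, beside 23.5% and 14.2% of all genes). In siHHEX against siNC *TCF3* rose by 0.73, *CDX2* rose by 0.42 and *KLF5* fell by 0.55, which is 16.7% higher and 8.33% lower of the 12, beside 16% and 16.9% of all tested genes, and none was called after the correction. *GRHL2* was 2.39 and 2.18 FPKM in siNC, 4.70 and 4.23 FPKM in siYAP/TAZ and 2.83 FPKM in siTEAD1/2/3/4.

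The genes whose log2(FPKM + 1) was most like that of *CLDN3* over the 8 libraries were *C14orf93*, *C6orf47*, *H6PD*, *ZSCAN2* and *KIAA0556*, with Pearson correlations of 0.984, 0.981, 0.978, 0.976 and 0.975. Their levels were 0.615 to 9.89 FPKM. Among the tight junction genes *CLDN4* came nearest, with 0.595, and *TJP1*, *CLDN12* and *OCLN* were at -0.33, -0.32 and -0.31. The 8 points share their siNC libraries, and the correlations are given without a test.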

How the data were processed

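Per the labels, total RNA of HCT-116 cells was sequenced in 8 libraries, and the authors deposited 1 FPKM value per gene and library (20030 rows, 27 named by a date and not renamed). The submitters' processing notes list Trimmomatic 0.36, HISAT2 2.0.5, Cufflinks 2.2.1 and HTSeq 0.9.1 without their roles. The build and annotation of the RNA-seq are not given in the sources used here. The test named in the study's methods needs counts, so limma 3.58.1 (R 4.3.3, variance trend) was used on log2(FPKM + 1), in 1 fit of 8 libraries and 4 groups. The filter was 1 FPKM or more in 2 or more libraries, and p values were adjusted by the Benjamini-Hochberg method over all 10677. Depth is unknown: the ratios of the lowest values between libraries showed no single step.

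The members and lists were chosen with earlier results of these data known. All 9 members are named, and of the other lists the called genes, at most 5 per direction, with every tested claudin and the targeted genes. One further junction gene was left out of the lists and their counts, and is not reported here. Coordinates, GC content and length come from GENCODE 44 (GRCh38) by symbol. The correction took off the trend of each library on GC content and log length (a natural spline with 4 degrees of freedom for each) in 10627 genes (99.5%). The GC box was added to the motifs after the promoters were read. Simulated data with known changes were used to test the fit. Other steps used Python 3.11.15, numpy 2.4.6, pandas 2.3.3 and matplotlib 3.10.9. The alternatives tried were another pseudocount (0.1), all genes unfiltered, a block for the replicate number, a fit without the other groups, median scaling, the correction, a fold over 2 with unadjusted p, and leaving out each library. ChIP-seq was not analysed here.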

Additional observations from a re-analysis of the deposited data

How the results depend on the processing

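Counts are given as higher and lower. For the 6 tested members other than *CLDN3* in siHHEX, 1 and 2 became 0 and 1 without the filter, 0 and 2 with only the groups compared, 0 and 1 with the replicate block, 0 and 1 with GC content and length corrected, 0 and 0 with the correction and the block, and 0 and 0 with a fold over 2 and unadjusted p. Over all tested genes the siHHEX calls also fell in both directions under each of these settings, least with only the groups compared. With the correction they fell from 1712 and 1806 to 339 and 324. In siYAP/TAZ 0 higher became 1 with only the groups compared, the block, the correction, or both. The higher calls over all tested genes in siYAP/TAZ rose under these settings too, with the correction from 657 to 979. Between siHHEX and siYAP/TAZ 1 and 2 became 0 and 1 without the filter, with only the groups compared, with the correction and with the correction and block. They became 0 and 2 with the block, 2 and 1 with median scaling, and 0 and 0 with the fold criterion. Over all tested genes, 1437 and 2763 became 253 and 704 with the correction and 2504 and 1514 with median scaling. Leaving out 1 library gave 0 to 2 higher and 0 to 2 lower in siHHEX and the same ranges between the knockdowns.

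For the other junction genes, siHHEX 6 and 5 became 1 and 1 with the correction, 0 and 1 with the correction and block, and 1 and 1 with the fold criterion. The 5 lower became 1 without the filter and 2 with the block, where the lower calls over all tested genes fell as well. With the correction, 1 and 1 are 3.33% each of those tested, beside 3.19% and 3.05% of all tested genes. In siYAP/TAZ 3 and 0 became 5 and 1 with only the groups compared, and 1 was lower with the correction, with or without the block. Over all tested genes both counts in siYAP/TAZ also rose under each of these settings. With the correction they rose from 657 and 227 to 979 and 349. Between the knockdowns 1 and 11 became 6 and 8 with median scaling, 0 and 6 with the correction, 0 and 3 with the correction and block, 0 and 1 with the fold criterion, and 0 higher without the filter, with only the groups compared and with the block. A pseudocount of 0.1 put 1 member lower and 2 other junction genes higher past 2-fold in siTEAD1/2/3/4. Leaving out 1 library gave 0 to 7 higher and 0 to 5 lower in siHHEX, 0 to 3 higher in siYAP/TAZ, 0 to 3 higher and 2 to 13 lower between the knockdowns, and 0 to 1 higher in siTEAD1/2/3/4. The cause was not tested.

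Of the log2 changes recomputed under each alternative (the members, the tested claudins and most called genes the text names), those that turned sign were *CLDN4* in siHHEX (-0.12 with the correction, -0.18 with correction and block), *CXADR* (0.0018 with both), *CLDN15* (-0.19, -0.22 with both) and *CLDN23* (0.0015 with the block, -0.27 to 0.0015 leaving out 1 library) in siHHEX, *CLDN7* in siYAP/TAZ (-0.10 with median scaling, -0.057 to 0.083 leaving out 1 library), *CLDN12* (0.0039 with the correction, with or without the block, -0.42 to 0.37 leaving out 1 library) and *F11R* (-0.12 to 0.042) in siYAP/TAZ, and between the knockdowns *LSR* (-0.037 with both) and *CLDN15* (-0.0044 with the block, -0.40 with the correction, -0.42 with both, -0.096 to 0.28 leaving out 1 library). For other listed genes only the sign with the correction was compared, and it also turned for some, among them *PARD6A* (0.04 to -0.46) and *CRB3* (0.34 to -0.17) between the knockdowns and *LSR* (0.30 to -0.13), *MARVELD2* (-0.19 to 0.10) and *KRT8* (0.04 to -0.35) in siHHEX. The replicate numbers did not pair the libraries: the correlations of same-numbered deviations were -0.0705 to 0.0215. Median scaling moved the share of calls that were higher from 48.7% to 60.1% in siHHEX, from 74.3% to 49.9% in siYAP/TAZ and from 34.2% to 62.3% between them. The correction left 339 higher and 324 lower genes in siHHEX. With 1 control library left out the remaining one is assumed to vary like the other groups. The number of reads is unknown, so no limit on low values such as *CLDN1* and *CLDN2* can be given.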
